A study of Oryza sativa with 4 samples.

Results

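The regions described here are the short arms of rice chromosomes 4 and 10, as mapped by chromatin immunoprecipitation and sequencing (ChIP-seq) of histone H4 acetylated at lysine 5 (H4K5ac). They were chosen by position alone: a peak belonged to them when its midpoint lay between 0 and 7.7 Mb on chromosome 4 or between 0 and 6.2 Mb on chromosome 10. Together they span 13.9 Mb. They held 711 of the 26147 peaks in drought-stressed leaves (2.72%) and 793 of the 28883 peaks in well-watered leaves (2.75%). They were set against the long arms of the same chromosomes, 11.7 to 33.5 Mb on chromosome 4 and 10.2 to 21.2 Mb on chromosome 10. The long-arm regions span 32.8 Mb and held 2388 drought-stressed and 2651 well-watered peaks. The stretches around the centromeres, 4 Mb on each chromosome, belong to neither, and the long-arm regions leave out the distal chromosome ends that the short-arm regions include.

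All leaves came from Hanyou73, a hybrid rice cultivar bred to use little water and resist drought, at the grain filling stage. One group was drought-stressed and the other well-watered, with 2 libraries each. Each condition has 1 peak list that stands for both of its libraries, so there is no value per replicate, no spread between replicates and no test between conditions. Whether the libraries of a condition came from separate plants is not given, nor are the genome build and the sequencing depth. Intervals below are 95% intervals that cover counting error only. They treat neighbouring peaks as independent, and peaks are not replicates.

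Acetylation of lysines in the tail of histone H4 loosens the packing of nucleosomes and marks chromatin that is open to transcription. Compact, repeat-rich heterochromatin carries little of it. In rice, the short arms of chromosomes 4 and 10 are known from microscopy of meiotic chromosomes to stain densely along much of their length, while the long arms hold most of the genes in looser euchromatin. The lists hold no mark of heterochromatin, so the label could be compared with the density of acetylated regions only.

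Acetylated regions were sparse on the short arm of chromosome 4 and not detectably so on that of chromosome 10. The chromosome 4 short arm held 42.6 drought-stressed peaks per Mb, against 76.4 per Mb on its long arm, a ratio of 0.557 (interval 0.494 to 0.628). In the well-watered list it held 47.4 peaks per Mb, against 85.1 per Mb on the long arm, a ratio of 0.557 (0.496 to 0.623). The chromosome 10 short arm held 61.8 drought-stressed peaks per Mb, against 65.6 per Mb on its long arm, and the ratio of 0.941 had an interval that includes 1 (0.829 to 1.07). In the well-watered list these densities were 69.0 and 72.3 peaks per Mb, with a ratio of 0.955 (0.847 to 1.08). Over both chromosomes the ratio was 0.703 (0.645 to 0.764) in the drought-stressed list and 0.706 (0.651 to 0.764) in the well-watered list. A pooled value therefore stands for a pair of unlike arms.

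Windows of 1 Mb gave the same picture. The 7 complete windows of the chromosome 4 short arm held 38 to 56 drought-stressed peaks (median 41) and 40 to 64 well-watered peaks (median 49). The 21 windows of its long arm held 21 to 126 drought-stressed peaks (median 87) and 23 to 143 well-watered peaks (median 92). The short-arm windows were alike, while those of the long arm included both emptier and far fuller ones. On chromosome 10 the 6 short-arm windows held 38 to 105 drought-stressed peaks (median 57) and 41 to 115 well-watered peaks (median 62.5), against 36 to 122 (median 58) and 41 to 139 (median 66) in the 11 long-arm windows. The ranges of both arms overlapped almost wholly there.

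**Figure D1:**
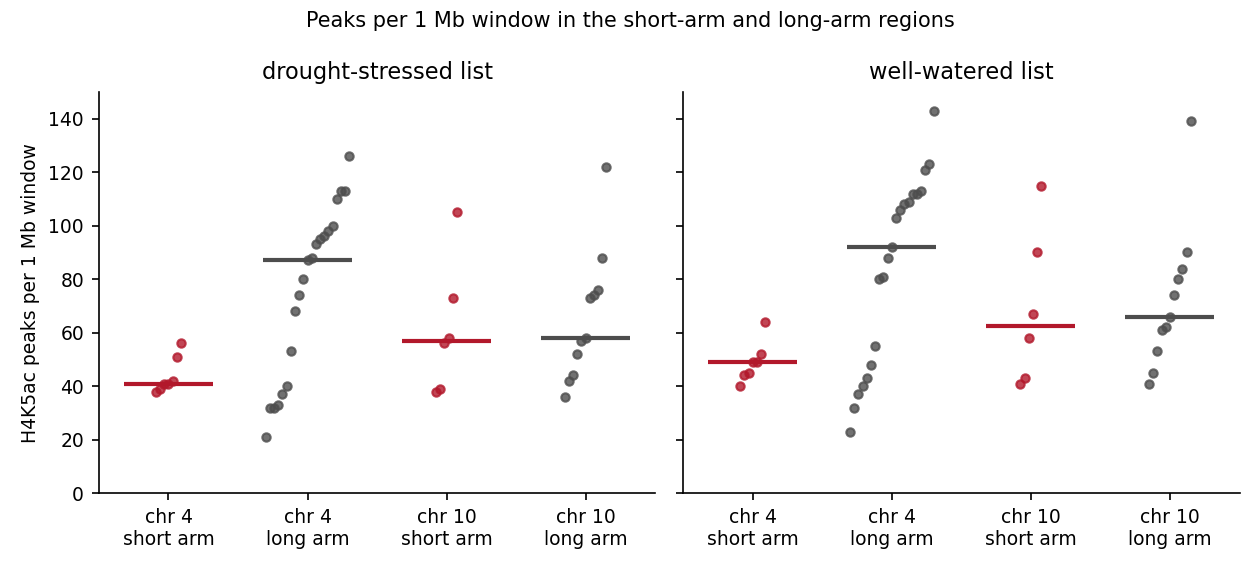
Each point is a complete 1 Mb window and the vertical axis gives its number of H4K5ac peaks, with the drought-stressed list on the left and the well-watered list on the right. Horizontal bars are medians over windows. The chromosome 4 short arm stays between 40 and 64 well-watered peaks, while its long arm spreads from 23 to 143.

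The inner parts of the long arms were also sparse. A stretch of each long arm as long as the short arm, next to its centromere-side bound (11.7 to 19.4 Mb on chromosome 4 and 10.2 to 16.4 Mb on chromosome 10), was set against it. Over both chromosomes the short arms held 51.2 drought-stressed peaks per Mb, against 43.8 in these stretches, a ratio of 1.17 (1.05 to 1.30). Their well-watered density was 57.1 per Mb, against 49.2, a ratio of 1.16 (1.05 to 1.29). The excess rested on chromosome 10, with ratios of 1.24 under drought (1.06 to 1.44) and 1.23 in watered leaves (1.07 to 1.43). On chromosome 4 the ratios, 1.09 (0.932 to 1.28) and 1.08 (0.931 to 1.26), had intervals that include 1. Set against the whole long-arm regions the order was the reverse. This comparison was added after the values were seen.

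The short and long arms differed in the makeup of their peaks by width. The median peak measured 467 bp in the drought-stressed list (interval 416 to 518 bp), against 564 bp on the long arms (551 to 577 bp). In the well-watered list it measured 469 bp (419 to 515 bp), against 606 bp on the long arms (591 to 621 bp). The upper quartile of the short-arm peaks was 710 bp under drought and 747 bp in watered leaves, against 730 and 809.5 bp on the long arms. The lower quartile was 227 bp under drought and 243 bp in watered leaves, against 371.75 and 353.5 bp on the long arms, so the arms differed more at the narrow end. The stretches around the centromeres had lower quartiles of 231.5 and 252 bp, close to those of the short arms, so this makeup is not particular to the short arms.

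Peaks under 300 bp, at most a short run of nucleosomes, were the most overrepresented. They made up 34.7% of the short-arm peaks in the drought-stressed list, against 18.8% on the long arms, a difference of 15.9 percentage points (interval 12.2 to 19.8). In the well-watered list they made up 32.3%, against 20.1%, a difference of 12.1 points (8.61 to 15.8). Over the whole lists the shares were 19.8% under drought and 20.6% in watered leaves, so the long arms were near the general level and the short arms above it. The difference was present on both chromosomes: 16.3 points on chromosome 4 (10.99 to 22.0) and 15.9 points on chromosome 10 (10.5 to 21.5) in the drought-stressed list, and 10.3 points (5.36 to 15.5) and 14.5 points (9.37 to 19.8) in the well-watered list.

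Counted per Mb, broad regions were fewer on the chromosome 4 short arm, while a shortage of narrow ones was not detectable there. On chromosome 4, the short arm held 15.1 drought-stressed peaks under 300 bp per Mb, against 14.5 on the long arm, a ratio of 1.04 (0.830 to 1.29). In the well-watered list the values were 14.7 and 17.6 per Mb, a ratio of 0.833 (0.669 to 1.03). For peaks of 600 to under 900 bp the chromosome 4 ratio was 0.454 under drought (0.359 to 0.567) and 0.462 in watered leaves (0.372 to 0.570). On chromosome 10, the short arm held 21.1 narrow drought-stressed peaks per Mb, against 12 on the long arm, a ratio of 1.76 (1.37 to 2.26). The well-watered values were 23.1 and 13.6 per Mb, a ratio of 1.69 (1.34 to 2.14). Its peaks of 600 to under 900 bp had ratios of 0.738 under drought (0.585 to 0.926) and 0.745 in watered leaves (0.596 to 0.927). On that arm the interval included 1 for well-watered peaks of 300 to under 600 bp (0.895, 0.710 to 1.12) and for drought-stressed peaks of 900 bp or more (0.770, 0.496 to 1.17). The interval lay wholly below 1 for drought-stressed peaks of 300 to under 600 bp (0.774, 0.613 to 0.973). So did that for well-watered peaks of 900 bp or more (0.675, 0.479 to 0.939). The near-equal total density on chromosome 10 was thus the sum of more narrow regions and fewer wider ones. Not every wider class differed beyond counting error in both lists.

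**Figure D2:**
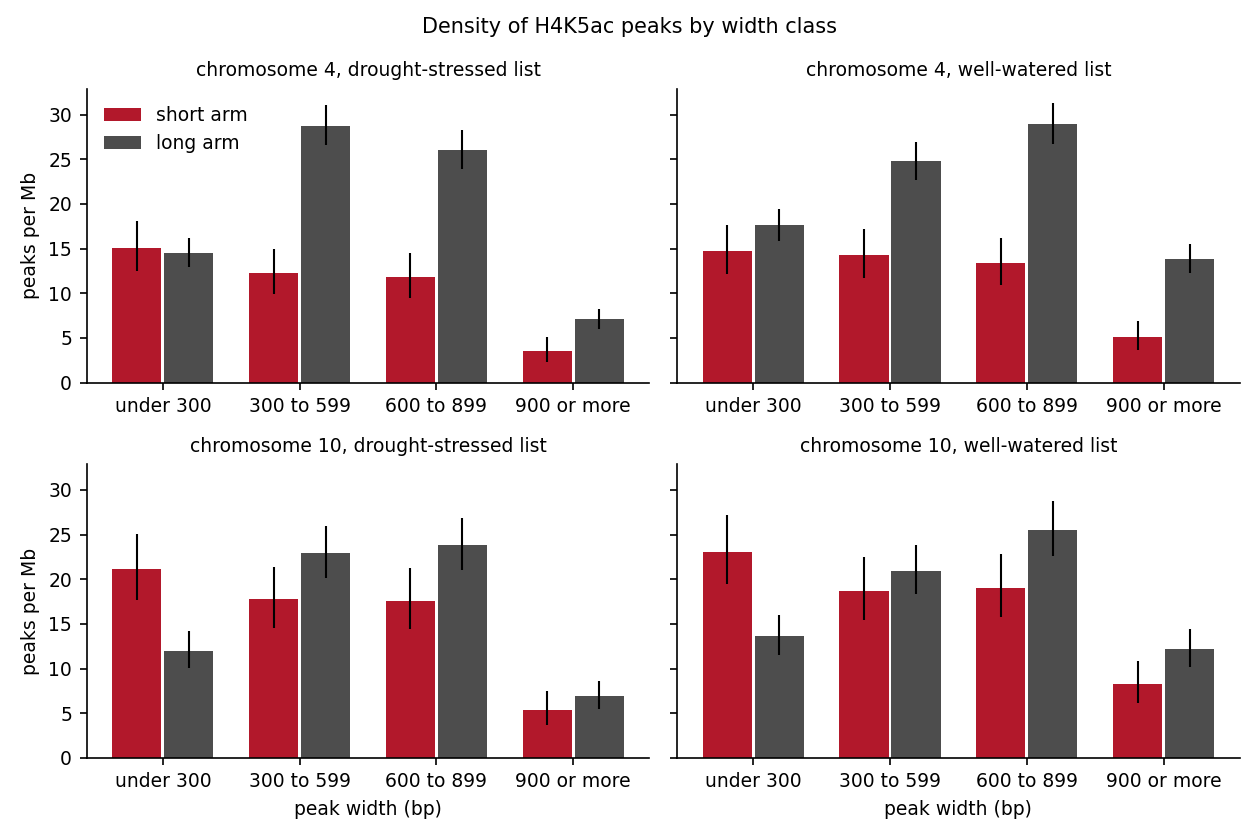
Bars give H4K5ac peaks per Mb by peak width in bp, for each chromosome (rows) and list (columns), with short arms in red left of long arms in grey. Error lines are 95% Poisson intervals, for counting error only. Bars for peaks under 300 bp are higher on the chromosome 10 short arm in both lists, and on chromosome 4 stand at 15.1 against 14.5 under drought and 14.7 against 17.6 in watered leaves. Those for 600 to under 900 bp are lower on both short arms.

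As a result, less of the short arms was covered. Peaks covered 2.52% of their length in the drought-stressed list, against 4.16% of the long arms, and 2.96% in the well-watered list, against 4.97%. Per Mb, the short arms had 0.607 of the covered length of the long arms under drought and 0.596 of it in watered leaves. On chromosome 4 these ratios were 0.481 and 0.476, and on chromosome 10 they were 0.806 and 0.792.

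The narrow peaks of the short arms were not the low-scored ones of the long arms. The score is the submitters' own value per peak, on a scale that is not stated, and is used only within a list. The median score was 310 on the short arms (interval 281 to 348) and 327.5 on the long arms (299 to 347) in the drought-stressed list, and 323 (281 to 378) and 358 (330 to 390) in the well-watered list. Among peaks under 300 bp, however, the median score was 121 on the short arms (100 to 149), against 65 on the long arms (61 to 68), in the drought-stressed list. In the well-watered list it was 133.5 on the short arms (116 to 172), against 60 on the long arms (55 to 63).

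Each list was divided by score into 5 classes of equal size, and the arms differed in the share of narrow peaks in classes 2 to 5. In class 2, 51.7% of the short-arm drought-stressed peaks were under 300 bp (43.6% to 59.8%), against 20.5% on the long arms (17.2% to 24.3%), and 46.6% of the well-watered ones (39.3% to 53.96%), against 20.3% (17.1% to 23.9%). In class 3, with scores from 236 to 466, 45 of 156 short-arm drought-stressed peaks were under 300 bp wide (28.8%, Wilson interval 22.3% to 36.4%), against 19 of 436 long-arm peaks (4.36%, 2.81% to 6.70%). The same class of the well-watered list ran from 242 to 566, and 58 of 177 short-arm peaks were narrow (32.8%, 26.3% to 39.99%), against 30 of 531 (5.65%, 3.99% to 7.95%). In the highest class 11.4% of the short-arm peaks were narrow under drought, against 1.75% on the long arms, and 7.19% in watered leaves, against 5 of 494 long-arm peaks. The lowest class went the other way in the well-watered list, with 56.1% on the short arms (48.2% to 63.6%) against 68.5% on the long arms (64.5% to 72.2%).

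**Figure D3:**
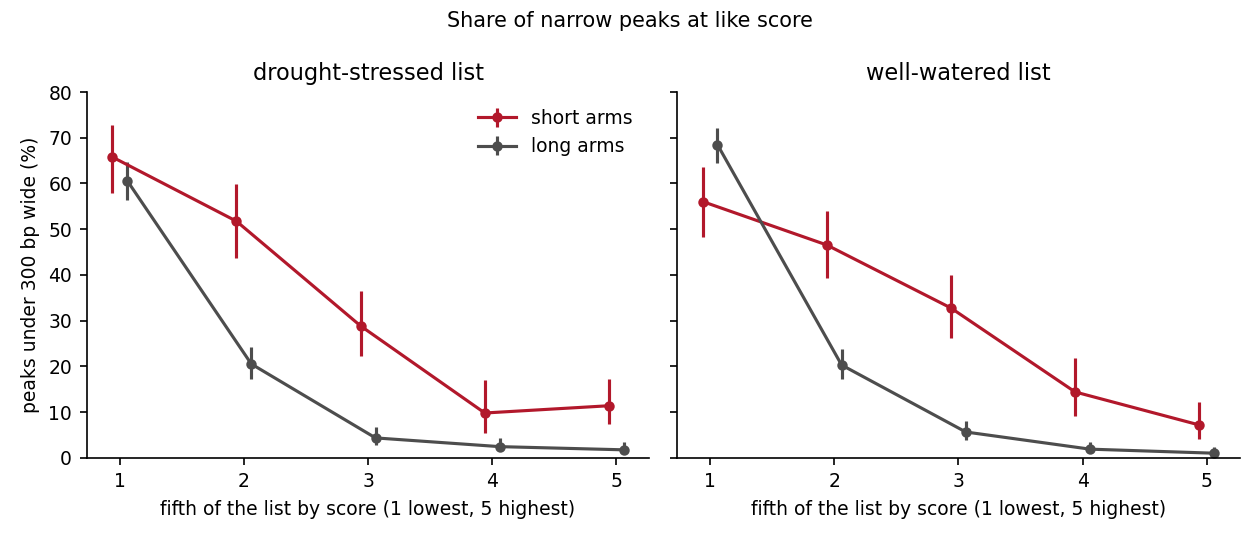
Points give the percentage of peaks under 300 bp wide in each of 5 equal classes of a list ranked by score, with Wilson 95% intervals, for short arms (red) and long arms (grey). From class 2 upward the short arms lie above the long arms in both lists. In class 3 of the well-watered list they stand at 32.8% against 5.65%.

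The short arms also held more than their share of very high scores. Of the 261 drought-stressed peaks in the top 1% of the list, 15 lay on the short arms, 2.11% of the peaks there (1.28% to 3.45%), against 21 on the long arms, 0.879% (0.576% to 1.34%). Of the 288 such well-watered peaks, 17 lay on the short arms, 2.14% (1.34% to 3.41%), against 21 on the long arms, 0.792% (0.519% to 1.21%). The intervals of the arms do not overlap in the well-watered list, and overlap slightly in the drought-stressed list. The regions around the centromeres had a larger share still, 5.23% under drought (3.19% to 8.44%) and 4.50% in watered leaves (2.70% to 7.41%).

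The same 3 regions led the chromosome 4 short arm in both lists. The first spanned 4129730 to 4130129 under drought (400 bp, score 59439) and 4129719 to 4130131 in watered leaves (413 bp, score 97397). It ranked 2 of all drought-stressed peaks and 1 of all well-watered peaks. The second was 785 bp wide from 6117546 to 6118330 under drought (score 16911) and 793 bp wide from 6117540 to 6118332 in watered leaves (24911). The third lay from 4891234 to 4891555 under drought (322 bp, score 9423) and from 4891193 to 4891561 in watered leaves (369 bp, 16333). All 3 were narrower under drought. Scores are given for each list in turn and are not compared between lists.

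On chromosome 10 the leading regions all lay in the window from 5 to 6 Mb. One, from 5513293 to 5514390 under drought and from 5513283 to 5514400 in watered leaves, was 1098 and 1118 bp wide, scored 33172 and 43846, and ranked 6 in both lists. Not far beyond it, a region of 1100 bp under drought (5525985 to 5527084, score 16895) and 1093 bp in watered leaves (5525996 to 5527088, score 27498) followed. The third, from 5265381 to 5265750, had exactly the same bounds and a width of 370 bp in both lists, with scores of 15147 under drought and 21075 in watered leaves. These leading regions thus had nearly the same extent in both conditions.

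The narrow peaks were concentrated in parts of the arms. In 4 of the 13 complete short-arm windows over 40% of the well-watered peaks were under 300 bp wide, and in 2 of the 32 long-arm windows. These windows, picked after their values were seen, were chromosome 4 from 2 to 3 Mb and from 3 to 4 Mb, and chromosome 10 from 3 to 4 Mb and from 5 to 6 Mb. In them, 136 of 268 drought-stressed peaks (50.7%) and 152 of 302 well-watered peaks (50.3%) were narrow, with median widths of 295 and 297.5 bp. In the remaining 9.9 Mb of the short arms, 25.1% of 443 drought-stressed and 21.2% of 491 well-watered peaks were narrow, with median widths of 565 and 595 bp. The long arms, with their 2 such windows kept in, had medians of 564 and 606 bp. Since the windows were picked for their narrow peaks, leaving them out raises the short-arm median by construction, and these values only describe where the narrow peaks lay.

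The distal ends were likewise closer to the long arms. In the first 2 Mb of both chromosomes, the median width was 576.5 bp under drought (541 to 621 bp) and 595 bp in watered leaves (526 to 653 bp). In the rest of the short arms it was 389 bp under drought (348 to 459 bp) and 395 bp in watered leaves (368 to 445 bp). Density differed between these parts in opposite directions on the 2 chromosomes. On chromosome 4 the first 2 Mb held 48.5 drought-stressed peaks per Mb, against 40.5 in the rest, and 56.5 well-watered peaks per Mb, against 44.2. On chromosome 10 they held 48.5 drought-stressed peaks per Mb, against 68.1 in the rest, and 54 well-watered peaks per Mb, against 76.2.

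The fullest 100 kb of the short arms by well-watered peaks lay on chromosome 10 from 3.2 to 3.3 Mb, with 21 drought-stressed and 26 well-watered peaks. Of these, 12 and 18 were under 300 bp wide. The next were chromosome 10 from 5 to 5.1 Mb, with 23 peaks in each list, and from 5.1 to 5.2 Mb, with 22 in each. The median stretch of this length held 4 drought-stressed and 5 well-watered peaks on the short arms, against 7 and 8 on the long arms. Yet 4 of 139 short-arm stretches and 1 of 328 long-arm stretches reached 20 well-watered peaks. The short arms thus had both a lower typical count and the fullest stretches.

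The stretch from 3.2 to 3.3 Mb shows how such a cluster is built. It opened with 151 bp under drought (3203999 to 3204149, score 149), against 158 bp in watered leaves (3203993 to 3204150, score 101). Next came 143 bp present only in watered leaves (3204757 to 3204899, score 211). It was followed by a region of 538 bp from 3205499 to 3206036 under drought (score 760) and 553 bp from 3205495 to 3206047 in watered leaves (score 1009). After that, 223 bp from 3207114 to 3207336 under drought (score 696) met 215 bp from 3207122 to 3207336 in watered leaves (score 881). All 18 shared regions of the stretch had ends within 31 bp of each other in both lists, and 17 of them within 20 bp. Over the whole stretch, 3 drought-stressed and 8 well-watered peaks had no counterpart, and of the 18 shared ones 12 were narrower and 6 wider under drought.

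The spacing of peaks also differed between the arms. The median gap between neighbouring peaks was 8571 bp under drought on the short arms (7234 to 9885 bp), against 7339.5 bp on the long arms (6944 to 7628 bp). In watered leaves it was 7723 bp (6854 to 9016 bp), against 6533 bp (6256 to 6913 bp). The ratios, 1.17 (0.981 to 1.36) under drought and 1.18 (1.04 to 1.39) in watered leaves, stood for unlike arms. On chromosome 4 the short-arm gaps were longer, by 1.41-fold under drought (1.19 to 1.78) and 1.61-fold in watered leaves (1.32 to 1.97). On chromosome 10 the ratios were 0.881 (0.709 to 1.15) and 0.908 (0.735 to 1.09), with intervals that include 1.

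Both very short and very long gaps were common on the short arms. Under drought 14.8% of gaps were shorter than 1 kb, against 9.60% on the long arms, and in watered leaves 16.2%, against 11.2%, differences of 5.21 points (2.49 to 8.23) and 5.01 points (2.30 to 7.97). This rested on chromosome 10, with 9.20 points under drought (5.02 to 13.7) and 10.3 in watered leaves (6.03 to 14.8). On chromosome 4 the differences were 1.28 (-2.08 to 5.41) and -0.547 points (-3.75 to 3.33). Gaps over 50 kb took up 43.3% of the short arms in the drought-stressed list and 36.1% in the well-watered list, against 27.2% and 25.2% of the long arms. Here chromosome 4 led, with 53.3% of its short arm under drought and 43.0% in watered leaves, against 25.4% and 23.2% of its long arm. On chromosome 10 the shares were 30.8% and 27.4%, against 30.9% and 29.1%.

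**Figure D4:**
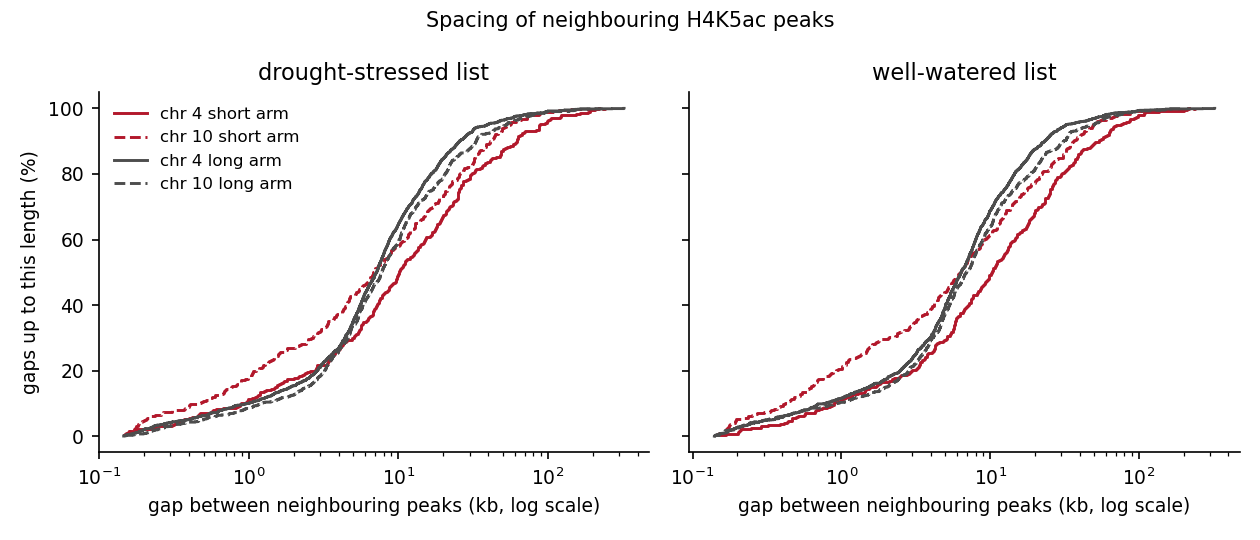
Curves give the percentage of gaps between neighbouring H4K5ac peaks that are no longer than the length on the log-scaled horizontal axis (kb), for short arms (red) and long arms (grey) of chromosome 4 (solid) and chromosome 10 (dashed). The chromosome 10 short arm has most gaps under 1 kb, 17.8% under drought and 20.6% in watered leaves. At the median the chromosome 4 short arm lies to the right of the others, with median gaps of 10.1 and 10.3 kb.

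The longest stretches of the short arms without a peak in either list were chromosome 10 from 530058 to 770074 (240 kb), chromosome 4 from 4912743 to 5112817 (200 kb) and chromosome 4 from 5903691 to 6090731 (187 kb). On chromosome 4 the long arm had longer ones, 324 kb from 15529205 to 15852790 and 270 kb from 14404750 to 14675189. On chromosome 10 the short arm's 240 kb exceeded the longest of the long arm, 202 kb from 12504966 to 12706927. The emptiest complete window of the short arms was chromosome 4 from 5 to 6 Mb, with 38 drought-stressed and 40 well-watered peaks. Chromosome 10 from 4 to 5 Mb also held 38 drought-stressed peaks, beside 43 well-watered ones. The fullest was chromosome 10 from 5 to 6 Mb, with 105 drought-stressed and 115 well-watered peaks.

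The comparison of conditions asked whether the acetylated regions of the short arms changed with drought as those of the long arms did. Their number did so. The short arms had 0.897 drought-stressed peaks for each well-watered peak, the long arms 0.901 and the whole lists 0.905. Their covered length under drought was 0.851 of that in watered leaves, against 0.835 on the long arms and 0.847 over all sequences. By chromosome, the number ratio was 0.899 on the chromosome 4 short arm and 0.895 on that of chromosome 10. Peak number and width move with sequencing depth, which is unknown, so these ratios describe the lists. In whole leaves, fewer cells that carry the mark and less of it per cell cannot be told apart.

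Regions found in one condition only were somewhat more frequent on the short arms under drought. Of the short-arm drought-stressed peaks, 55 of 711 (7.74%, Wilson interval 5.99% to 9.93%) overlapped no well-watered peak, against 114 of 2388 on the long arms (4.77%, 3.99% to 5.70%) and 4.89% of the whole list. The difference was 2.96 points (0.985 to 5.30). Of the short-arm well-watered peaks, 141 of 793 (17.8%, 15.3% to 20.6%) overlapped no drought-stressed peak, against 412 of 2651 (15.5%, 14.2% to 17.0%) and 15.1% of the whole list. That difference, 2.24 points, had an interval that includes 0 (-0.644 to 5.35). These calls depended on settings: the well-watered-only interval no longer included 0 with the same number of peaks from both lists (3.98, 1.41 to 6.85) or with near peaks merged (3.50, 0.586 to 6.68). The drought-stressed-only interval included 0 at a reciprocal overlap of 50% (2.18, -0.624 to 5.26). It also did when both lists were first cut to peaks above their median score (1.44, -0.656 to 4.36). After that cut, a peak whose counterpart scored lower also counts as condition-only. By chromosome, the drought-stressed-only difference was 4.23 points on chromosome 4 (1.27 to 8.01) and 2.53 on chromosome 10 (-0.0791 to 5.64).

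Among peaks under 300 bp the short arms did not have the higher share in either list. Among drought-stressed peaks under 300 bp, 49 of 247 on the short arms had no counterpart (19.8%, 15.3% to 25.3%), against 101 of 449 on the long arms (22.5%, 18.9% to 26.6%). With the long arms weighted to the widths of the short-arm peaks, the drought-stressed-only difference became -1.09 points, given without an interval. The width weighting was chosen after the data were seen. Weighted to the short-arm scores instead, the drought-stressed-only difference was 3.03 points and the well-watered-only difference 2.74 points, again without intervals. The cause of the higher share was not tested. Among well-watered peaks under 300 bp the share was lower on the short arms: 88 of 256 on the short arms had no counterpart (34.4%, 28.8% to 40.4%), against 293 of 534 on the long arms (54.9%, 50.6% to 59.0%). These narrow short-arm peaks also had the higher scores given above. At 300 to under 600 bp, 46 of 226 short-arm well-watered peaks had none (20.4%, 15.6% to 26.1%), against 99 of 770 (12.9%, 10.7% to 15.4%).

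Most condition-only regions were short and low in score, as elsewhere. Those of the short arms had a median of 171 bp under drought, where shared peaks measured 519 bp, and 232 bp in watered leaves, where shared peaks measured 561.5 bp. Of the drought-stressed-only peaks, 19 of 55 lay within 1 kb of a well-watered peak (34.5%, 23.4% to 47.7%), and of the well-watered-only peaks 34 of 141 lay within 1 kb of a drought-stressed peak (24.1%, 17.8% to 31.8%). None of the 55 drought-stressed-only peaks and 3 of the 141 well-watered-only peaks scored above the median of their list.

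Of the 5 highest-scored drought-stressed-only regions, 4 were on chromosome 10. They lay from 3214304 to 3214493 (190 bp, score 231), from 1253600 to 1253777 (178 bp, 205), from 5980095 to 5980248 (154 bp, 197), and the fourth from 3244866 to 3245173 (308 bp, 128). The other lay on chromosome 4, from 3356828 to 3357001 (174 bp, 128), and the nearest well-watered peak was 27108 bp away. The first lay 163 bp from a well-watered peak and the second 11683 bp.

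The 5 highest-scored well-watered-only regions were divided between the chromosomes. On chromosome 10 these were 5398145 to 5398288 (144 bp, score 1567), 5150352 to 5150506 (155 bp, 483) and 5090409 to 5090561 (153 bp, 388). On chromosome 4 they were 4110767 to 4111072 (306 bp, 1014) and 842596 to 842957 (362 bp, 320). Their distance to the nearest drought-stressed peak ran from 373 bp, for the region at 5150352, to 3789 bp, for that at 842596. All 3 on chromosome 10 lay in its fullest window, 5 to 6 Mb, and were close to the shortest width listed, 139 bp.

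Where a short-arm peak of one list met a single peak of the other, their widths could be compared. The median of 638 such pairs was 24 bp narrower under drought (interval of the change -33 to -18 bp), against a median change of -55 bp over 2165 pairs on the long arms (-61 to -51 bp) and -53 bp over all pairs. The difference between the arms was 31 bp (21.2 to 39.5 bp). It was 28 bp on chromosome 4 (11.2 to 38.8 bp) and 35 bp on chromosome 10 (20.6 to 44.2 bp). As a percentage of the well-watered width, the median change was -5.03% on the short arms, against -8.75% on the long arms.

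Fewer short-arm pairs were narrower. Of the 638 pairs, 431 were narrower under drought (67.6%, 63.8% to 71.1%), against 1636 of 2165 on the long arms (75.6%, 73.7% to 77.3%) and 75.1% of all pairs. The difference was -8.01 points (-12.1 to -4.03). In turn 194 short-arm pairs were wider (30.4%, 27.0% to 34.1%), against 510 on the long arms (23.6%, 21.8% to 25.4%) and 24.2% of all pairs, and 13 were equal. In 120 short-arm pairs the well-watered peak was at least 25% wider than the drought-stressed one (18.8%, 15.97% to 22.0%), against 23.0% on the long arms (21.3% to 24.9%) and 22.0% of all pairs. The drought-stressed peak was at least 25% wider in 32 pairs (5.02%, 3.57% to 6.99%), against 4.43% (3.64% to 5.38%) and 4.29%. The total hid opposite differences by width. Under 300 bp, 7.47% of the short-arm pairs had such a gain, against 15.6% on the long arms, a difference of -8.13 points (-14.0 to -1.83). From 300 to under 600 bp the shares were 9.09% and 4.85%, a difference of 4.24 points (0.451 to 9.40). The ends of a peak moved inward by a median of 8 bp on the left and 9.5 bp on the right, against 21 and 22 bp on the long arms.

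The median change in bp was smallest among narrow pairs on both arms, though large losses and large gains both occurred there. As a percentage of the well-watered width, it was -3.02% under 300 bp and -4.05% at 300 to under 600 bp on the short arms. On the long arms these values were -3.51% and -9.71%. On the long arms, the well-watered peak was at least 25% wider in 26.4% of pairs under 300 bp, and the drought-stressed peak in 15.6%. At 600 to under 900 bp these shares were 20.0% and 2.14%. On the short arms they were 19.5% and 7.47% under 300 bp, 24.6% and 9.09% in the next class, and 15.3% and 0.957% at 600 to under 900 bp. Among pairs with a mean width under 300 bp, the median change was -6 bp on the short arms (-12 to -2 bp), against -9 bp on the long arms (-19 to -1 bp). At 300 to under 600 bp it was -20 bp (-44 to -11 bp), against -49 bp (-54 to -39 bp). At 600 to under 900 bp it was -56 bp (-70 to -39 bp), against -73 bp (-81 to -65 bp). With the long-arm pairs weighted to the mean widths of the short-arm pairs, the difference between the arms was 20 bp instead of 31 bp. The weighted value has no interval, and the cause of the difference was not tested. At 300 to under 600 bp, 62.0% of short-arm pairs were narrower, against 73.6% of long-arm pairs, a difference of -11.6 points (-19.3 to -4.14). In the other 3 width classes the interval of this difference included 0.

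Within the short arms, the median change was smaller in the 4 windows rich in narrow peaks, which had been picked for peak width. In those 4 windows the median change over 239 pairs was -6 bp, and in the rest of the short arms it was -51 bp over 399 pairs. Window by window it was -4 and -10 bp on chromosome 4 from 2 to 3 and from 3 to 4 Mb, and -13 and -5.5 bp on chromosome 10 from 3 to 4 and from 5 to 6 Mb. The other 9 short-arm windows ran from -93 bp (chromosome 10 from 2 to 3 Mb) to -26.5 bp (chromosome 4 from 4 to 5 Mb). The 2 long-arm windows with over 40% narrow peaks, on chromosome 4 from 14.7 and from 16.7 Mb, had -30.5 and -27 bp. The smallest change of all, -2.5 bp, was in a long-arm window with 24.4% narrow peaks, chromosome 10 from 10.2 to 11.2 Mb. With each window counted once, the median was -52 bp over 13 short-arm windows, against -57.5 bp over 32 long-arm windows. In the first 2 Mb of the short arms the median change was -58 bp (-70 to -43 bp), and in the rest it was -17 bp (-24 to -12 bp).

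**Figure D5:**
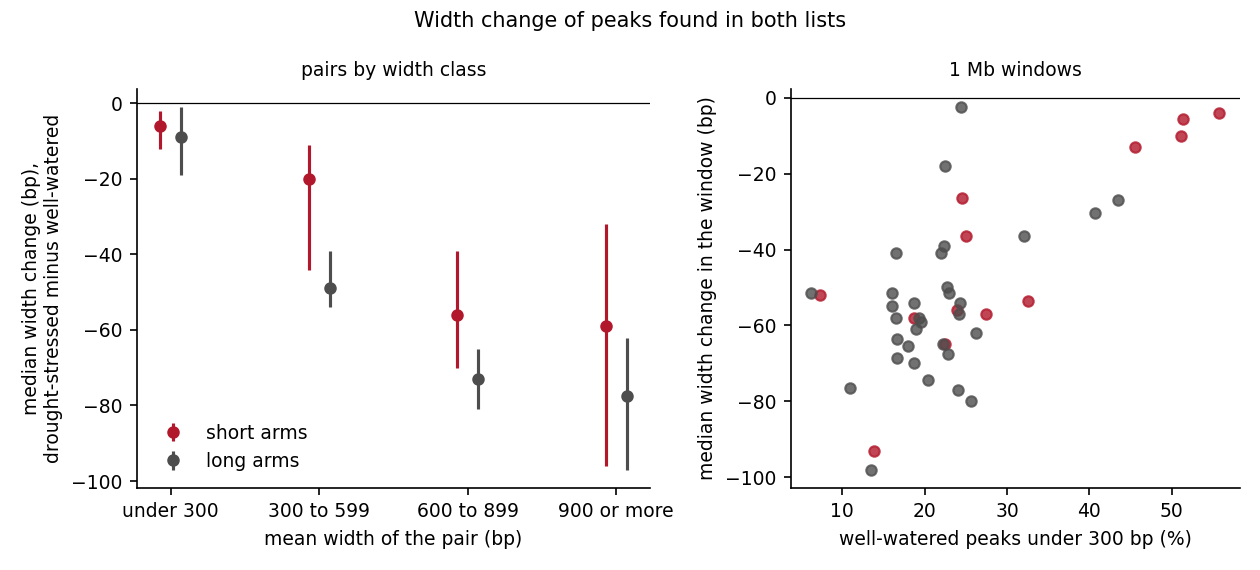
Left, the median width change in bp (drought-stressed minus well-watered) of 1-to-1 pairs by mean width, with order-statistic 95% intervals, for short arms (red) and long arms (grey). Right, each point is a 1 Mb window, with the percentage of its well-watered peaks under 300 bp on the horizontal axis and its median width change on the vertical axis. The 4 short-arm windows with over 40% narrow peaks have median changes of -13 to -4 bp.

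Single short-arm regions changed far more than the median. The largest loss was on chromosome 4, with 482 bp under drought (928158 to 928639), against 1104 bp in watered leaves (927591 to 928694). On chromosome 10, a peak of 165 bp under drought (2147034 to 2147198) met 769 bp in watered leaves (2146924 to 2147692). A second loss on chromosome 4 left 231 bp under drought (1137696 to 1137926), against 789 bp in watered leaves (1137079 to 1137867). The largest gains were 506 bp on chromosome 4, with 890 bp under drought (2751572 to 2752461) against 384 bp in watered leaves (2751923 to 2752306), and 464 bp on chromosome 10, with 657 bp (2572433 to 2573089) against 193 bp (2572661 to 2572853). The third, 405 bp, was on chromosome 4, with 656 bp under drought (2186509 to 2187164) against 251 bp in watered leaves (2186576 to 2186826). This last pair had scores of 310 under drought and 297 in watered leaves. The other 5 pairs had scores of at most 135 in both lists.

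Few peaks of either arm met 2 or more peaks of the other list. Of the short-arm well-watered peaks, 7 (0.883%) met 2 or more drought-stressed peaks, against 49 on the long arms (1.85%) and 1.72% of the whole list. These shares cover peaks of any width and were not compared at like width. Peaks of 900 bp or more made up 11.3% of the short-arm well-watered peaks, against 16.4% on the long arms. In the other direction, 4 drought-stressed peaks (0.563%) met 2 or more well-watered peaks, against 14 on the long arms (0.586%) and 0.597% of the whole list. One well-watered peak met 3, on chromosome 4 from 3219751 to 3220880. Drought-stressed peaks of 150 to 336 bp stood there, against 1130 bp and a score of 1402 in watered leaves.

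The widest short-arm region differed between the lists. Under drought it was on chromosome 4 from 1110684 to 1112552, 1869 bp wide, against 1974 bp in watered leaves (1110666 to 1112639). In watered leaves it was on chromosome 10, where 1748 and 346 bp under drought stood against 2514 bp in watered leaves (94840 to 97353). The third widest under drought, on chromosome 4, measured 1597 bp (7324131 to 7325727), against 1574 bp in watered leaves (7324209 to 7325782). The third widest of the well-watered list, on chromosome 4, had 1546 bp under drought, against 1665 bp in watered leaves (5847302 to 5848966), where its score was 147.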

How the data were processed

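H4K5ac ChIP-seq was run on 4 leaf libraries of rice cultivar Hanyou73, 2 drought-stressed and 2 well-watered. Per the labels, both libraries of a condition point to 1 peak list. The tools BWA, SAMtools, MACS2 and deepTools are named without versions, per the submitters' processing notes. Not given in the sources used here are the genome build, the calling threshold, any control and how libraries were combined. Each deposited list gives chromosome, start, end, name and a score, the authors' own value per peak on a scale that is not stated. Read counts are not part of the lists, so depth is unknown.

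Peaks were assigned to arms by their midpoint, and coordinates are those of the lists, 1-based. Peaks overlapping by at least 1 bp were called shared, those with no overlap condition-only, and pairs in which each peak met only the other were compared in width (drought-stressed minus well-watered). Python 3.11.15, numpy 2.4.6, pandas 2.3.3 and scipy 1.17.1 were used. Overlap counts were checked against bedtools 2.31.1. Condition-only counts, pair counts and width changes were tested by planting known changes in the well-watered list. Shares have Wilson intervals, their differences Newcombe intervals, densities and ratios of densities exact intervals, medians order-statistic intervals, and differences and ratios of medians a combination of those, all at 95%.

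Regions named singly were the 3 highest-scored peaks per chromosome and list, the 5 highest-scored condition-only peaks and the 3 widest per list, the 3 largest losses and gains of width, peaks meeting 3 or more of the other list, the 3 longest gaps, the fullest and emptiest 1 Mb windows and the 3 fullest stretches of 100 kb. Members and comparisons were chosen with earlier results of these data known. No gene or sequence was assigned, since a genome of the lists' build was not used here. Alternatives covered each chromosome alone, shifted bounds, score and overlap limits, equal list lengths, weighting by score or pair width, merging of near peaks, the distal ends, and 4 chosen after seeing the data: an equal length of long arm, leaving out windows rich in narrow peaks or the fullest stretches, and weighting condition-only shares by peak width.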

Additional observations from a re-analysis of the deposited data

How the results depend on the processing

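No paired analysis was possible because the 2 libraries of a condition share 1 list, and no library was left out either. Over 10 results and 104 alternatives, 94 values stayed on the same side and 75 stayed within the interval reported. The short-to-long density ratio was 0.557 on chromosome 4 and 0.941 on chromosome 10 under drought, and 0.557 and 0.955 in watered leaves. Against the equal length of long arm next to the centromere it turned, to 1.17 under drought and 1.16 in watered leaves, and without the 4 windows rich in narrow peaks it was 0.615 and 0.614. The difference in median width (short minus long, -97 bp under drought and -137 bp in watered leaves) became -175 and -211 bp without the first 2 Mb, -19 and -32 bp above the median score, and -43 and -74 bp with peaks under 500 bp apart merged. Without the 4 windows it was 1 bp under drought, a change of sign, and -11 bp in watered leaves. The median gap ratio was 1.41 and 1.61 on chromosome 4, 0.881 and 0.908 on chromosome 10, 0.813 and 0.799 against the equal length of long arm, and 1.44 and 1.51 without the 4 windows. The well-watered-only difference became -1.85 points when both lists were first cut to peaks above their median score. There a peak whose counterpart scored lower also counts as condition-only. With long arms weighted to the short-arm widths the well-watered-only difference became -5.28 points and the drought-stressed-only difference -1.09 points. With long arms weighted to the short-arm scores they were 2.74 and 3.03 points. The difference in width change, 31 bp, became 20 bp with weighting by pair width and 4 bp without the 4 windows. With weighting by score it stayed at 31 bp. The difference in the share of narrower pairs ranged from -10.1 to -4.08 points over 11 alternatives. Without the 4 windows it was -4.14 points with an interval that includes 0 (-9.08 to 0.465). The 4 windows were picked for their narrow peaks, so leaving them out raises the short-arm width by construction. They and the equal length were chosen after seeing the data, and the cause of these shifts was not tested. The lists hold no depth and no values per library, so no spread between plants stands beside any difference between conditions.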

Other observations

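The stretches around the centromeres, from 7.7 to 11.7 Mb on chromosome 4 and from 6.2 to 10.2 Mb on chromosome 10, were sparser than the short arms. They held 35.9 drought-stressed peaks per Mb (31.8 to 40.3) and 38.9 well-watered peaks per Mb (34.7 to 43.4). Their median width was 520 bp under drought (411 to 580 bp) and 530 bp in watered leaves (473 to 607 bp), and the median gap was 14997 bp under drought and 13001 bp in watered leaves. Of their peaks, 17 drought-stressed (5.92%) and 42 well-watered ones (13.5%) had no counterpart. The drought-stressed share was 1.53% on chromosome 4 (0.420% to 5.40%) and 9.62% on chromosome 10 (5.91% to 15.3%). The well-watered shares were 10.6% (6.55% to 16.8%) and 15.9% (11.2% to 22.1%). The median change in width over 262 pairs was -33 bp (-42 to -21 bp), and 72.5% of the pairs were narrower under drought.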
